A study of Homo sapiens with 6 samples.

Results

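The genes described here are those of the human leukocyte antigen (HLA) class II family together with CIITA and CD74, in RPMI 8226 cells, a human cell line established from multiple myeloma, a cancer of plasma cells. A list of 10 names was looked up among the probe sets whose annotation gives a single gene symbol, and for each gene the probe set with the highest mean over the 6 arrays was taken. This found 9 of the 10 genes, out of 18417 genes measured on the array. The probe set for CD74 also lists ROS1, so CD74 has no value of its own. The list was proposed with the irradiated and unirradiated values in view and the probe sets were chosen by their means over both groups. The differences of the listed genes between the groups are therefore given as a description, with no test.

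The study compared cells given 0 Gy with cells given 6 Gy of carbon ions, heavy charged particles that ionise densely. Total RNA was taken 1 day after irradiation and hybridised, labelled with biotin, to 3 arrays for each dose. All arrays hold the same line with no other stated treatment, and the labels do not say whether the numbered samples were separate cultures. P-values therefore rest on a spread between arrays that may be only technical.

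Class II molecules are pairs of an alpha and a beta chain that carry peptides from endosomes to the cell surface, where CD4 T cells read them. HLA-DP, HLA-DQ and HLA-DR do the presenting. The invariant chain CD74 fills their groove until it is degraded, HLA-DM then exchanges its remnant for peptides, and HLA-DO restrains HLA-DM. The genes share a promoter element, the S, X and Y boxes, bound by the RFX complex, CREB and NF-Y, and the coactivator CIITA docks on these proteins without binding DNA itself. In normal plasma cells the repressor PRDM1 shuts off CIITA and with it class II expression.

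Each of the 8 class II genes was higher on all 3 irradiated arrays than on any unirradiated array, a separation found for 19.0% of all genes. Their log2 differences ran from 0.53 for HLA-DRB5 to 1.48 for HLA-DQA1, with a median of 0.88, against a median of 0.04 over all genes. CIITA stood apart from them with a log2 difference of 0.13 ± 0.07 (SE) and overlapping groups. As the genes were proposed with this contrast in view, nothing is read from that share. In bulk RNA, more cells that express these genes and more of their RNA per cell cannot be told apart.

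The promoter stretch is printed here for the 8 class II genes to show how far they share the letters of this element. The sequences are RefSeq's for GRCh38.p14, 5′ to 3′ on the gene's own strand, and end before the annotated start. Capitals mark matches to CNAGNNAC, letters from the X box, and to ATTGG, the core of the Y box. Each line gives the stretch around the matches.
HLA-DQA1, chr6:32637296-32637347, plus strand: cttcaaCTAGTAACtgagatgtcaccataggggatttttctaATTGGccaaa
HLA-DOA, chr6:33009649-33009700, minus strand: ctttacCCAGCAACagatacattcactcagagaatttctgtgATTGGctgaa
HLA-DMA, chr6:32953167-32953218, minus strand: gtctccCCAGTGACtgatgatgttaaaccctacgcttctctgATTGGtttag
HLA-DRB5, chr6:32530368-32530418, minus strand: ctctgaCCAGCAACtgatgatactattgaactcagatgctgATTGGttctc
HLA-DOB, chr6:32817091-32817142, minus strand: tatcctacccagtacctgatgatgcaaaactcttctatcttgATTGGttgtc
HLA-DPB1, chr6:33075849-33075900, plus strand: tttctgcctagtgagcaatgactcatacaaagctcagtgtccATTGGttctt
HLA-DMB, chr6:32941073-32941124, minus strand: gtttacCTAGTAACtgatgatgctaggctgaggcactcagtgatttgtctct
HLA-DPA1, chr6:33073705-33073756, minus strand: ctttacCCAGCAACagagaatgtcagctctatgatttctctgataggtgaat

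In HLA-DQA1, HLA-DOA and HLA-DMA the ATTGG starts 36 bases after the start of the X box letters, and in HLA-DRB5 it starts 35 bases after. On the gene's own strand, HLA-DOB and HLA-DPB1 hold the Y letters only and HLA-DMB and HLA-DPA1 the X letters only. Of the 9 genes with a promoter, CD74 among them, 6 held ATTGG on the gene's strand and 8 on either strand. HLA-DMA holds a further match of each outside the printed stretch. HLA-DPA1 has a second annotated start in the table, whose promoter holds neither set of letters on this strand. Over the 250 bases before the start, CNAGNNAC was found in 18.0% of 35116 promoters on the gene's strand (33.2% on either strand) and ATTGG in 18.5% (32.0%). Both in this order, 20 to 40 bases apart, were found in 0.367% of promoters on the gene's strand and in 0.740% on either strand. The 2 sets of letters do not overlap at that spacing. The letters and the spacing were chosen with these promoters in view, so the matches are a description of the sequences. The table matched 9 of the 10 genes, and CIITA had no entry.

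Among the antigen-presenting chains, the HLA-DP pair lay above the upper quartile of every array (7.87 to 7.96), and both genes were higher by similar amounts. HLA-DPA1, the alpha chain, read 9.66, 9.63 and 9.79 (log2 intensity) on unirradiated replicates 1 to 3 and 10.50, 10.39 and 10.42 on irradiated replicates 1 to 3. HLA-DPB1, its beta chain, read 10.36, 10.50 and 10.51 without irradiation and 11.37, 11.28 and 11.22 after it. For both genes the lowest irradiated array lay above the highest unirradiated one, by 0.60 and by 0.71. The log2 differences were 0.74 ± 0.07 and 0.83 ± 0.07 (SE, n = 3 arrays a group), or 1.67-fold and 1.78-fold.

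HLA-DQA1, the alpha chain of HLA-DQ, had the largest difference of the 9 measured genes. Its values were 4.79, 5.08 and 5.11 on the unirradiated arrays and 6.42, 6.69 and 6.32 on the irradiated ones. The groups were 1.22 apart at their closest, and the log2 difference was 1.48 ± 0.11 (SE), or 2.80-fold. The unirradiated mean of 5.00 lay below the array medians (5.64 to 5.67), so this probe set was dim before irradiation, and whether it was above background is unknown because the values come without detection calls.

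HLA-DRB5, a second DR beta chain carried by some haplotypes only, had the smallest difference of the 8 class II genes chosen. It read 6.58, 6.47 and 6.57 without irradiation and 6.94, 7.15 and 7.13 after it, groups that stood 0.36 apart. The log2 difference was 0.53 ± 0.08 (SE), or 1.45-fold. The DRB genes are near-identical in parts, so this value is uncertain as to which DRB transcripts it holds.

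The HLA-DM pair, which exchanges peptides, lay above the upper quartile of every array, with little spread. HLA-DMA read 10.88, 10.92 and 10.89 on the unirradiated arrays and 11.65, 11.59 and 11.67 on the irradiated ones, for a log2 difference of 0.74 ± 0.06 (SE), or 1.67-fold. HLA-DMB, its partner chain, read 9.25, 9.40 and 9.35 and then 10.35, 10.27 and 10.18, for a difference of 0.93 ± 0.08 (SE), or 1.91-fold. Neither chain's groups overlapped. The unirradiated SD was 0.02 for HLA-DMA and 0.08 for HLA-DMB.

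The HLA-DO genes, whose product restrains HLA-DM, had differences above 1 on the log2 scale and lay between the array median and the upper quartile before irradiation. HLA-DOA read 6.95, 6.80 and 6.54 without irradiation and 7.98, 7.79 and 8.23 with it, a difference of 1.23 ± 0.13 (SE), or 2.35-fold. It was the most variable of the 9 genes, with SDs of 0.21 and 0.22, yet its groups stood 0.84 apart. HLA-DOB read 6.31, 6.52 and 6.29 and then 7.39, 7.50 and 7.38, a difference of 1.05 ± 0.08 (SE), or 2.07-fold.

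CIITA, the coactivator, read 7.13, 6.97 and 6.95 on the unirradiated arrays and 7.16, 7.12 and 7.17 on the irradiated ones. Unirradiated replicate 1 lay within the irradiated range, so the groups overlapped. Its fold was 1.10. A single probe set names CIITA, and it does not separate the transcripts that start from the gene's alternative promoters.

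**Figure D1:**
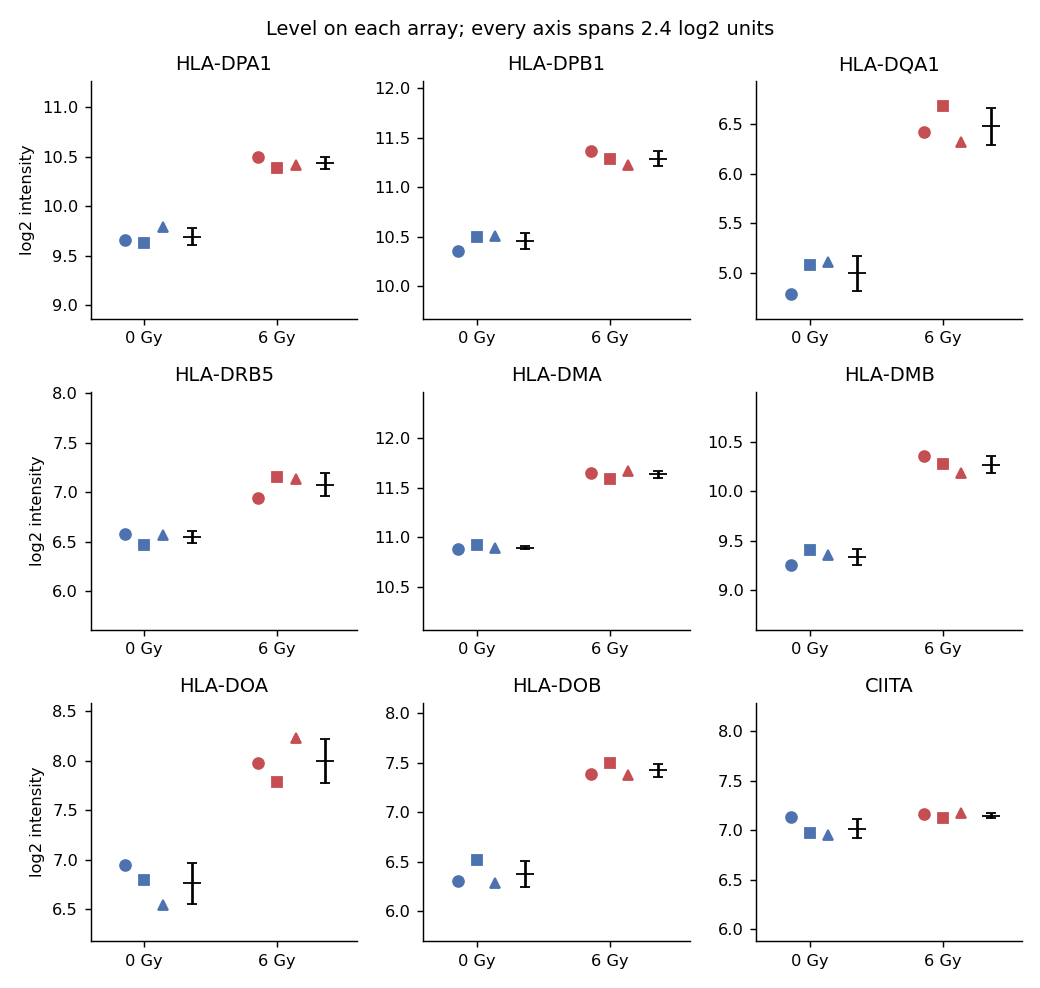
Deposited log2 intensity of the 9 measured genes on each array, with circles, squares and triangles for replicates 1, 2 and 3 of the 0 Gy (blue) and 6 Gy (red) arrays and bars for the mean ± SD of 3 arrays. The groups are separate for the 8 class II genes and overlap for CIITA.

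No single array carried the pattern. Among the 3 unirradiated arrays each was the highest of its group for 3 of the 9 genes, and the same held for the irradiated arrays. The median deviation of the 9 genes from their group means lay between -0.03 and 0.04 on every array. On the unirradiated arrays HLA-DMA stood at the 96.3rd percentile of all genes by level and HLA-DPB1 at the 94.6th. CIITA stood at the 58.0th and HLA-DQA1 at the 30.0th. Probe sets differ in brightness for the same amount of RNA, so the position of one gene relative to another is not a ratio of transcripts.

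Besides the chosen probe sets, 9 further ones name 1 of the class II genes. All 9 were higher on every irradiated array, a separation found for 15.1% of the 33297 probe sets on the array. The log2 differences of the 9 ran from 0.71 to 1.495. Not all are separate measurements: of the 3 HLA-DMA probe sets, 2 hold identical values, as do 2 of the 3 for HLA-DPA1. The second probe set of HLA-DOA gave 1.495 ± 0.123 (SE) where the chosen one gave 1.23, and the other ones of HLA-DPB1 gave 0.80 and 0.92 beside 0.83. Those of HLA-DMA, HLA-DMB, HLA-DOB and HLA-DPA1 differed from the chosen one by less than the spread between arrays.

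A further 15 probe sets list several class II genes at once, so their signal belongs to no 1 gene. All 15 were higher on every irradiated array, with log2 differences from 0.38 to 2.15, where 15.1% of the 33297 probe sets on the array had that separation. The 4 that list HLA-DQA2 with HLA-DQA1 had differences from 1.59 to 2.15. The brightest of them read 10.25, 10.37 and 10.15 and then 12.42, 12.35 and 12.44, a difference of 2.15 ± 0.08 (SE), or 4.43-fold, and a second one holds the same values. The other two gave 1.68 and 1.59. All 4 lay above the array median before irradiation, unlike the probe set that names HLA-DQA1 alone, which gave 1.48.

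The beta chain of HLA-DQ also had probe sets on both sides of the array median. Of the 4 that list HLA-DQB2 with HLA-DQB1, the brightest went from a mean of 8.35 to 10.16, a difference of 1.81 ± 0.11 (SE), and the smallest difference was 0.88. The probe set that names HLA-DQB1 alone was near the bottom of the array's range (3.50 ± 0.26 and 3.68 ± 0.10, mean ± SD, n = 3) and did not pass limma's test, with a log2 difference of 0.18 (adjusted p 0.361). It was the only 1 of 7 other class II genes listed with a probe set of its own. The pseudogene HLA-DPB2, added with its values seen, read 4.10 ± 0.08 and 4.43 ± 0.23, a difference of 0.33 with groups 0.01 apart.

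Probe sets that list HLA-DRA or several HLA-DRB genes had smaller differences than those that list HLA-DQA2 or HLA-DQB2. The 3 that list HLA-DRA, the alpha chain of all DR molecules, with HLA-DQA1 had unirradiated means from 12.27 to 12.51 and log2 differences from 0.38 to 0.40. These 3 were bright, on arrays whose highest values ran from 13.84 to 14.02. Whether such brightness narrows a difference was not tested. The 3 that list HLA-DRB6, HLA-DRB5, HLA-DRB4, HLA-DRB3, HLA-DRB1 and HLA-DQB1 together had unirradiated means from 10.87 to 11.09 and differences from 0.54 to 0.63. The 1 listing HLA-DRB1 with HLA-DQB1 gave 0.58.

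CD74 can be seen only through the probe set it shares with ROS1. That probe set read 12.71, 12.69 and 12.80 on the unirradiated arrays and 12.88, 12.90 and 12.81 on the irradiated ones. The groups were 0.01 apart and the log2 difference was 0.13 ± 0.07 (SE), or 1.10-fold. This probe set was brighter than those listing HLA-DRA, and whether brightness narrows its difference was not tested. Together, 36 probe sets list a class II gene, CIITA or CD74, and they hold 32 distinct sets of values. Of the 36, 34 were higher on every irradiated array, a separation found for 15.1% of the 33297 probe sets on the array. These genes were proposed with this contrast in view, so nothing is read from that share.

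**Figure D2:**
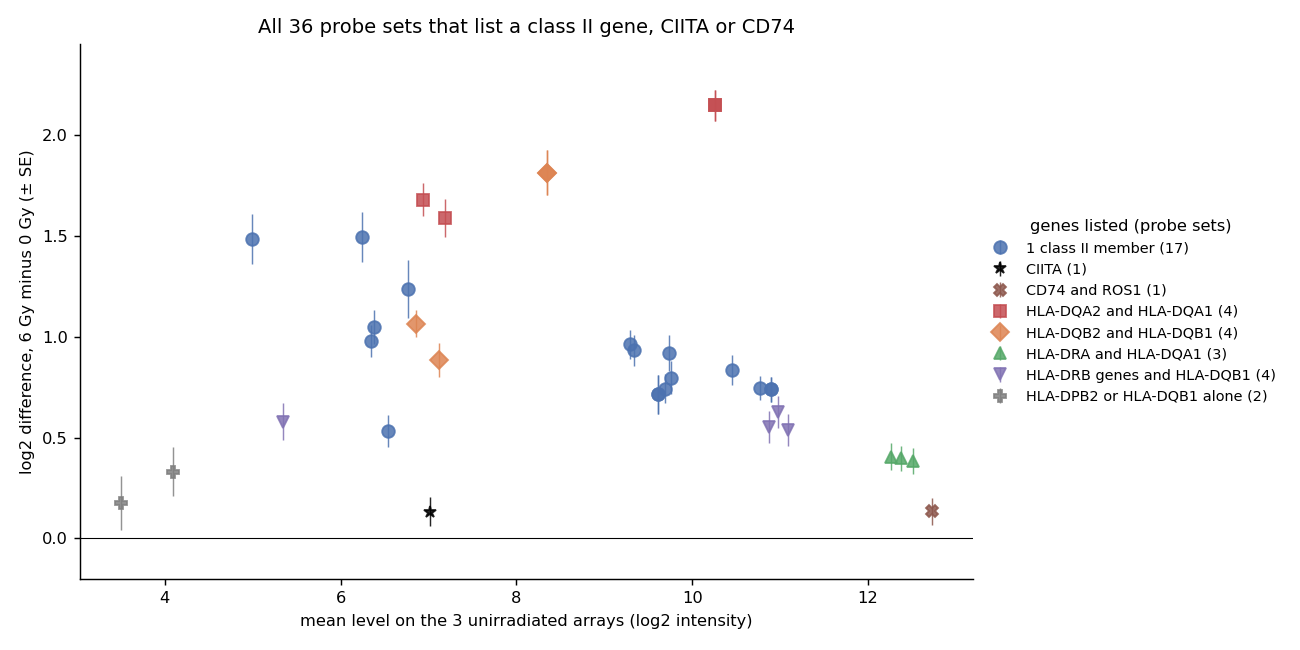
Log2 difference (6 Gy minus 0 Gy, bars ± SE) against the unirradiated mean level (log2 intensity) for the 36 probe sets that list a class II gene, CIITA or CD74, with symbols for the genes listed; points with identical values overlie. HLA-DQ probe sets reach 2.15, those listing HLA-DRA lie between 0.38 and 0.40, and CIITA and the CD74 and ROS1 probe set lie at 0.13.

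Genes of the lists around class II were tested with limma's moderated test over all genes, at a Benjamini-Hochberg adjusted p under 0.05, which called 6.35% of all genes higher and 8.18% lower. Of 7 measured genes for proteins that bind the class II promoters, 2 fell, 0 rose and 5 did not pass the test. At an unadjusted limma p under 0.05, 4 were lower and 1 higher, against 2571 and 2911 of all 18417 genes. The median log2 difference of the 7 was -0.24. RFXAP, a subunit of the RFX complex, read 5.83, 6.09 and 5.99 and then 5.54, 5.45 and 5.64. It fell by 0.43 (adjusted p 0.0102, limma). The NF-Y subunit gene NFYC fell by 0.28 (adjusted p 0.0285). The other RFX subunits differed by -0.13 for RFX5 (adjusted p 0.26) and 0.25 for RFXANK (0.0697). The call of NFYC ended without unirradiated replicate 1 or 2 or irradiated replicate 1 or 2 (adjusted p up to 0.109, and 1 gene of the list called each time), and RFXANK was called without irradiated replicate 3 (0.0417), after quantile normalization (0.0191), without the dimmest genes (0.041) and with an intensity trend (0.0443).

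Another list holds transcription factor genes of B cells and plasma cells, taken as regulators of CIITA. Whether each of them acts on CIITA itself was not tested. Of 12 measured, 1 rose and 2 fell by limma, where 6.35% and 8.18% of all genes did, and 9 did not pass the test. Their median log2 difference was 0.004. PRDM1, the repressor of CIITA, lay above the upper quartile and differed by -0.05 ± 0.07 (SE, adjusted p 0.657). IRF4 differed by -0.02 ± 0.07 (adjusted p 0.884), and PAX5, which maintains B cell identity, by 0.19 ± 0.08 (adjusted p 0.126). BACH2, a repressor that delays plasma cell formation, fell by 0.58 (adjusted p 0.00292), XBP1 fell by 0.23 (0.0405) and IRF8 rose by 0.26 (0.0291). With any 1 unirradiated array or irradiated replicate 1 left out, both IRF8 and XBP1 lost their call and 1 gene of the list was called. The IRF8 call ended without irradiated replicate 3 too and the XBP1 call without irradiated replicate 2 (adjusted p up to 0.0979 and 0.117).

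Interferon-gamma is the classical outside signal that induces CIITA. Of 10 genes measured on its route, 1 rose and 2 fell by limma (6.35% and 8.18% of all genes), with a median of -0.04. SOCS1, a feedback inhibitor of the receptor's kinases, rose by 0.43 (adjusted p 0.00992), from 7.43, 7.48 and 7.25 to 7.81, 7.93 and 7.71. The transcription factor genes IRF1 and USF1, which act on a CIITA promoter, fell by 0.27 each (adjusted p 0.0469 and 0.03). The probe set of IFNG itself, added with its values seen, was dim (3.35 ± 0.04 and 3.38 ± 0.21, mean ± SD, n = 3). The calls of IRF1 and USF1 both ended without any 1 unirradiated array or irradiated replicate 1 or 3 (adjusted p up to 0.155 and 0.1, with 1 gene of the list called), and that of IRF1 ended after quantile normalization (0.0821).

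Genes that interferon-gamma induces moved in both directions. Of 13 measured, 2 rose and 2 fell by limma (6.35% and 8.18% of all genes), with a median of 0.04, equal to that of all genes. The chemokine genes CXCL9 and CXCL10 rose by 1.75 and 1.41 (adjusted p 9.22e-05 and 7.67e-05). CXCL9 was dim before irradiation, below the array medians, and went from 4.57 ± 0.04 to 6.32 ± 0.36 (mean ± SD, n = 3). CXCL11, a chemokine of the same kind, and GBP2, both added with their values seen, were dim and differed by 0.06 and 0.19 (adjusted p 0.676 and 0.131). NLRC5, the class I counterpart of CIITA, fell by 0.43 (adjusted p 0.0123), from 6.98 ± 0.17 to 6.56 ± 0.04 (mean ± SD, n = 3). The other that fell was IRF1.

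**Figure D3:**
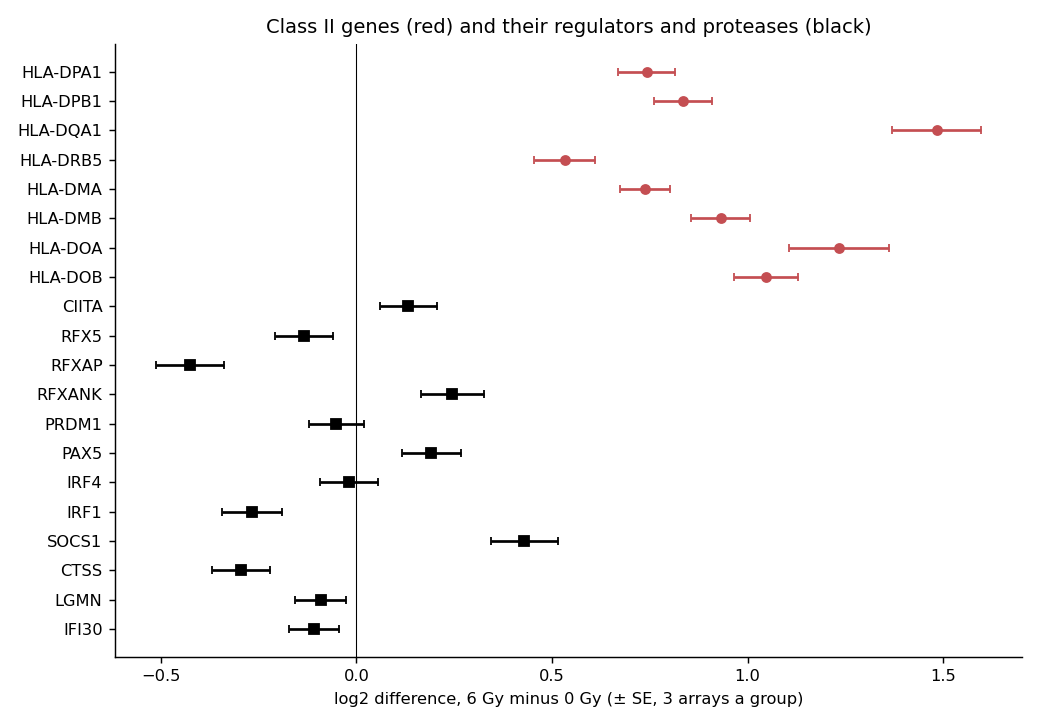
Log2 difference (6 Gy minus 0 Gy, ± SE, n = 3 arrays a group) of the 8 class II genes (red circles) and of CIITA, regulators and endosomal enzymes (black squares). The class II genes lie between 0.53 and 1.48 and the black squares between -0.43 and 0.43.

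The next list holds endosomal enzymes that degrade CD74 or cut peptides for class II, with the cathepsin inhibitor genes CST3 and CSTB. Of 13 measured, 4 fell and 0 rose by limma, where 8.18% and 6.35% of all genes did, with a median of -0.11. Unadjusted limma p-values under 0.05 were held by 4 lower and 1 higher, against 2571 and 2911 of all 18417 genes. CST3, which encodes cystatin C, fell by 0.60 (adjusted p 0.00224), and the protease gene CTSB fell by 0.51 (0.00171). CTSS, the protease best known for removing the invariant chain in B cells, fell by 0.29 (adjusted p 0.0258), from 8.43 ± 0.05 to 8.14 ± 0.10 (mean ± SD, n = 3). LGMN, a lysosomal endopeptidase, differed by -0.09 (adjusted p 0.382), and IFI30, the reductase that opens disulphide bonds, by -0.11 (0.29). The CTSS call ended without any 1 array except irradiated replicate 1 (adjusted p up to 0.0943) and after quantile normalization (0.0616). The list had 2 genes called without unirradiated replicate 1 or 2 or irradiated replicate 2.

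Genes of class II trafficking and turnover had 1 higher and 1 lower of 13 by limma, near the shares of all genes (6.35% and 8.18%), with a median of 0.03. The tetraspanin gene CD82 rose by 0.26 (adjusted p 0.0451) and the myosin gene MYO1E fell by 0.36 (0.0306). The ubiquitin ligase genes that send class II to lysosomes, MARCHF1 and MARCHF8, differed by 0.20 and -0.32 (adjusted p 0.187 and 0.113) and were named after their values were seen. Both calls ended without any 1 unirradiated array or irradiated replicate 1, each of which left 0 of the list called. The CD82 call ended without irradiated replicate 3 and with array medians subtracted (0.0504) too, and the MYO1E call without irradiated replicate 2, which left 1 called (adjusted p up to 0.136 and 0.0973).

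At the surface CD74 binds the cytokine MIF and signals with CD44. CD44 rose by 0.31 (adjusted p 0.0113), from 11.01, 10.97 and 11.01 to 11.29, 11.28 and 11.35. It was the 1 gene called by limma among 4 measured ligands and partners (6.35% of all genes rose), whose median was 0.003.

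A list of co-stimulatory, adhesion and inhibitory ligands met by helper T cells, together with receptors for class II such as CD4 and LAG3, had 5 higher and 2 lower of 15 by limma (6.35% and 8.18% of all genes), with a median of 0.21. CD80, which engages CD28 on T cells, rose by 0.66 (adjusted p 6.95e-04), from 4.39, 4.42 and 4.58 to 5.13, 5.21 and 5.04, from a level below the array medians. CD86, its relative, is added here with its value already seen: it fell by 0.27 (adjusted p 0.0223). The adhesion gene ICAM1 rose by 0.45 (0.00335), and PDCD1LG2, which encodes a ligand of the inhibitory receptor PD-1, rose by 0.46 (0.0143). The PDCD1LG2 call ended without unirradiated replicate 1 or 3 (adjusted p up to 0.0589). The 7 called became 2 without unirradiated replicate 1 or 3, 4 without unirradiated replicate 2 or irradiated replicate 1, and 3 without irradiated replicate 2.

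Of 13 measured class I presentation genes, which serve CD8 T cells, 3 fell and 0 rose by limma (8.18% and 6.35% of all genes). With the limma p unadjusted and under 0.05, 4 were lower and 0 higher, against 2571 and 2911 of all 18417 genes. The median of the 13 was -0.08. B2M, the light chain of class I, added with its values seen, differed by -0.01 ± 0.07 (SE, adjusted p 0.935). Beside NLRC5, TAPBPL and PSMB10 fell by 0.32 and 0.31 (adjusted p 0.0162 and 0.0323). The TAPBPL call ended without unirradiated replicate 1 or 3 (up to 0.0688), which left 1 gene called, and the PSMB10 call ended without any 1 array except irradiated replicate 2 (up to 0.11) and after quantile normalization (0.0621).

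Of 21 measured non-HLA genes beside the class II genes on chromosome 6, 0 rose and 5 fell by limma, with a median of -0.06. Of all genes, 6.35% rose and 8.18% fell. Without adjustment, 1 was higher and 6 lower at a limma p under 0.05, against 2911 and 2571 of all 18417 genes. TAP1, TAP2, PSMB8 and PSMB9, which lie between HLA-DOB and HLA-DMB and were named after their values were seen, differed by 0.07, -0.10, -0.01 and -0.08. They and TAPBP are in the class I list too. RGL2, RXRB and RING1 fell by 0.46, 0.45 and 0.33 (adjusted p 0.00306, 0.00408 and 0.0164). Without unirradiated replicate 1 RING1 lost its call (0.0688) and 2 genes of the list were called. Among 11 genes beside CIITA on chromosome 16, 2 rose (SOCS1, above, and EMP2 by 0.27, adjusted p 0.0254) and 1 fell (NUBP1 by 0.29, adjusted p 0.0359), with a median of 0.05, against the same shares of all genes. The EMP2 call ended without any 1 array except irradiated replicate 2 (up to 0.0942), and the NUBP1 call without any 1 except unirradiated replicate 3 (up to 0.125) and after quantile normalization (0.0522). The list had 1 gene called without unirradiated replicate 1 or 2 or irradiated replicate 1 or 3.

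**Figure D4:**
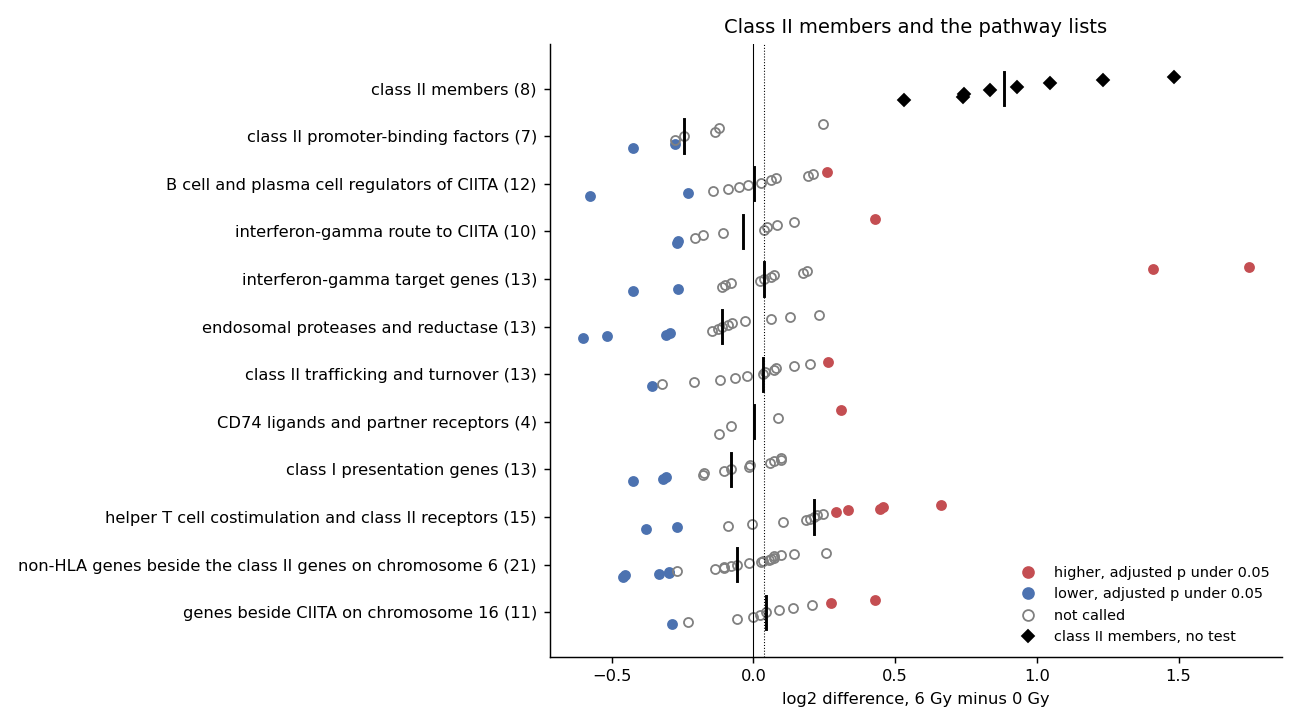
Log2 difference (6 Gy minus 0 Gy) of each measured gene of the class II group and of 11 lists around it, with black diamonds for the class II genes, which were not tested, and circles for the lists, filled red or blue where limma called the gene higher or lower at an adjusted p under 0.05 and open otherwise. Thick bars are list medians, the dotted line is the median of all genes (0.04), and the class II group with its median of 0.88 lies to the right of the lists' medians, which run from -0.24 to 0.21.

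Profiles over the 6 arrays were taken as log2 values minus each gene's own unirradiated mean. The 5 other genes closest to the mean profile of HLA-DPA1, HLA-DPB1, HLA-DQA1 and HLA-DRB5 were TMEM263, IL2RG, BAG3, DTX1 and ZP3. Root mean square distances from that mean profile ran from 0.0477 for TMEM263 to 0.085 for ZP3. The log2 differences of these 5 genes lay between 0.85 and 0.91. IL2RG, the shared receptor chain of several interleukins, read 10.36, 10.44 and 10.52 and then 11.37, 11.35 and 11.16. With 2 groups this likeness is mainly a likeness in the size of the difference.

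Of all 18417 genes, 2676 (14.5%) were called by limma, 1169 higher and 1507 lower (8.18%), and 1584 and 1471 were called without unirradiated replicates 1 and 2. Of 12 plasma cell markers, 10 lay above the upper quartile of the unirradiated arrays. The mean level over the 12 was 9.91 to 9.92 on the unirradiated arrays and 9.85 to 9.89 on the irradiated ones. Of the 12, SLAMF7 was called higher and CD38, DERL3 and XBP1 lower. In contrast, 0 of 9 measured markers of monocytes, macrophages and dendritic cells lay above the array median. Of these 9, 0 were called by limma, where 14.5% of all genes were. Unadjusted, 1 of them was higher and 0 lower at a limma p under 0.05, against 2911 and 2571 of all 18417 genes. The mean level over those 9 markers was 4.03 to 4.16 on the unirradiated arrays and 4.15 to 4.26 on the irradiated arrays. Of 8 B cell markers, 6 lay above the array median and 2 above the upper quartile before irradiation. Their mean level was 6.53 to 6.69 on the unirradiated arrays and 6.63 to 6.67 on the irradiated ones. Among them MS4A1 and CD79B were called higher (by 0.54 and 0.28) and CR2 lower (a difference of -0.33). The part of any of these marker differences in the class II values was not tested. Of 7 T and NK cell markers, 2 lay above the array median and 0 above the upper quartile before irradiation. Their mean level was 4.68 to 4.88 on the unirradiated arrays and 4.83 to 4.99 on the irradiated ones.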

How the data were processed

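Gene expression was measured on 6 arrays of RPMI 8226 cells. The deposited log2 values of 33297 probe sets an array were used as the authors gave them. That the logarithm has base 2 was read from their range, and every fold rests on it. The sources used here do not give the normalization, background correction or software. Array medians ran from 5.64 to 5.72. Depth does not apply, and the number of arrays limits the precision (median SE 0.08).

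The platform annotation, used for gene names, gives 1 symbol to 19460 probe sets, several to 1754 and none to 12083. RefSeq of GRCh38.p14 held 19429 of the 19460 by Entrez ID. For genes with several, the brightest probe set was used.

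Groups were compared with limma 3.58.1 (lmFit, eBayes) in R 4.3.3, two-sided, no covariate, no filter, with Benjamini-Hochberg adjustment over 18417 genes and a threshold of 0.05. "Rose" and "fell" are used of genes so called. SEs of single probe sets come from the same fit over all probe sets. An exact permutation test of 3 arrays against 3 cannot go below 0.1, so none was run. The fit was tested on simulated data.

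The genes and the 12 lists were chosen with earlier results of these data known. Named genes were all 9 measured genes, up to 3 called members of each list with the smallest p (or the 1 with the smallest p), 13 regulators, and 5 genes by likeness of profile. Alternatives were a replicate block, each array left out, the dimmest 33.3% left out, quantile normalization, array medians subtracted, an intensity trend with robust prior, and the mean of all probe sets. Python 3.11.15 made tables and figures.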

Additional observations from a re-analysis of the deposited data

How the results depend on the processing

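The 8 class II genes kept their direction under 12 alternative settings. Those with other probe sets naming only them kept it on each of these too. HLA-DQA1 and HLA-DRB5 have 1 such probe set each, so neither other probe sets nor their mean could check these genes. For these 8 genes the groups did not overlap, so leaving out 1 array could not have reversed a direction. The replicate block, the intensity trend and the loss of the dimmest genes leave a difference as it is. The kept direction is therefore no check under those settings. The CIITA difference ran from 0.10 to 0.19. The median difference of the 9 measured genes ran from 0.79 to 0.87 with 1 array left out, and their median level above the array median from 1.30 to 1.38. Deviations from the group means correlated at -0.04, 0.10 and -0.11 between same-numbered arrays, so the numbers were not taken to pair the samples. The replicate block left 1 gene called among class II promoter-binding factors, B cell and plasma cell regulators of CIITA, the interferon-gamma route and genes beside CIITA, 2 among endosomal proteases, 3 in helper T cell costimulation and 0 in trafficking. Promoter-binding factors had 4 called without the dimmest genes and with the intensity trend, and trafficking had 1 with array medians subtracted. Leaving out 1 array, all genes called ran from 1471 to 2184. List counts then ran from 1 to 3 for promoter-binding factors, the interferon-gamma route, class I presentation and genes beside CIITA. They ran from 1 to 2 for regulators of CIITA, 3 to 4 for interferon-gamma targets, 2 to 3 for endosomal proteases and 0 to 2 for trafficking. They ran from 2 to 6 for costimulation and 2 to 5 for genes beside class II. IRF4 ran from -0.0651 to 0.0427, above 0 without irradiated replicate 2 only. The cause of these shifts was not tested. Of 418 other values of the 35 genes named from the lists, 338 kept their direction and side of the threshold. Dim probe sets, HLA-DQA1's among them, come with no detection call, which limits what their levels show.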
